A study of Mus musculus with 24 samples.

Results

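The 8 Cyp3a genes Cyp3a11, Cyp3a13, Cyp3a16, Cyp3a25, Cyp3a41a, Cyp3a41b, Cyp3a44 and Cyp3a59 were taken by name from the 25746 genes counted in each liver library, and all 8 of them were among the 12330 genes that passed the filter on low counts. Cyp3a16, Cyp3a41a, Cyp3a41b and Cyp3a44 passed it through the female libraries alone. RNAseq was performed on the liver of 24 C57/BL6N mice aged 12 weeks, with 6 mice in each of 4 groups and 1 library per mouse. Male and female wildtype mice (mWT and fWT) carried the major urinary protein (Mup) gene cluster, and their homozygous KO littermates (mKO and fKO) lacked the whole cluster, from upstream of Mup4 to downstream of Mup21, after CRISPR/Cas9 editing. All KO mice descended from 1 founder male. Mice of all groups lived in groups with free access to chow, and some of them were housed singly for several days of metabolic measurements. Before the liver was taken, mice of all groups were fasted for a few hours and anaesthetised with isoflurane for a scan.

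CYP3A enzymes are haem-containing monooxygenases of the endoplasmic reticulum, which oxidise steroids, bile acids and a broad range of drugs. They receive electrons from NADPH-cytochrome P450 reductase (Por) and, in part, from cytochrome b5. In the mouse liver, Cyp3a11 is the major inducible form and a classical target of the pregnane X receptor (PXR, Nr1i2), whereas Cyp3a41 and Cyp3a44 are known as female-predominant forms and Cyp3a16 was first described in fetal liver. Sex differences of liver P450 genes are set largely by the temporal pattern of growth hormone, which is pulsatile in males and nearly continuous in females. Onecut1 (HNF6), Cux2, Stat5b and Bcl6 are transcription factors of that system.

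All 8 genes lie on chromosome 5 (GENCODE M21, GRCm38) and have 13 exons. Cyp3a13 (ENSMUSG00000029727, chr5:137892932-137921619, minus strand) stood apart, 7514689 bp before the nearest other member. Genes named Cyp3a other than the 8 members are left out of the order given here. The members in the main cluster ran in the order Cyp3a16 (ENSMUSG00000038656, chr5:145436309-145469723), Cyp3a41b (ENSMUSG00000075552, chr5:145558664-145584730), Cyp3a41a (ENSMUSG00000075551, chr5:145694049-145720136), Cyp3a44 (ENSMUSG00000054417, chr5:145773983-145805874), Cyp3a11 (ENSMUSG00000056035, chr5:145854426-145879964) and Cyp3a25 (ENSMUSG00000029630, chr5:145977194-146009618), all on the minus strand. Cyp3a59 (ENSMUSG00000061292, chr5:146079257-146113287) was the last member, on the plus strand. The coding sequences fell into 2 groups of close relatives and a lone gene. Cyp3a11, Cyp3a16, Cyp3a41a, Cyp3a41b and Cyp3a44 shared 92.41% to 99.87% of aligned coding bases with each other, Cyp3a25 and Cyp3a59 shared 97.49%, and Cyp3a13 shared 75.20% to 76.82% with the rest.

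Cyp3a41a and Cyp3a41b differed at 2 of 1515 coding bases. The differences were G120A and G336T, with the base of Cyp3a41a first, the base of Cyp3a41b last, and positions counted from 1 at the first base of the start codon. These stretches of GENCODE M21 coding sequence are shown because within the coding part they are the only places at which a read can be told apart. The differing base is in capitals.
Cyp3a41a, bases 100 to 140: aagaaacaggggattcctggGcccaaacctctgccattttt
Cyp3a41b, bases 100 to 140: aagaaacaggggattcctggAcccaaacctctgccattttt
Cyp3a41a, bases 316 to 356: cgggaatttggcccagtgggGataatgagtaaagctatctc
Cyp3a41b, bases 316 to 356: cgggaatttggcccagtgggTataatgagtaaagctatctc
Of all 100-base windows of its annotated transcripts, the read length used here, Cyp3a41a shared 90.82% with another gene and Cyp3a41b 88.24%. The shares were 7.39% for Cyp3a59, 6.79% for Cyp3a25, 5.37% for Cyp3a44, and at most 0.14% for Cyp3a11, Cyp3a16 and Cyp3a13. How the counting treated reads with several matches is not given in the sources used here, so the counts of Cyp3a41a and Cyp3a41b, and their ratio, are uncertain. Their sum in place of the separate genes was therefore tested as well.

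The promoters followed the same lines in part, and that of Cyp3a11 stood apart from those of its close relatives in coding sequence. The 250 bases before the RefSeq start (GRCm38.p6, read on the strand of each gene) were 99.6% identical between Cyp3a41a and Cyp3a41b, 92.9% between Cyp3a16 and Cyp3a44, and 94.8% between Cyp3a25 and Cyp3a59. Cyp3a11 reached 71.7% to 76.2% with Cyp3a16, Cyp3a41a, Cyp3a41b and Cyp3a44. The windows of Cyp3a16 (chr5:145469724-145469973), Cyp3a41a (chr5:145720137-145720386), Cyp3a44 (chr5:145805875-145806124) and Cyp3a11 (chr5:145879855-145880104), all on the minus strand, are shown, since the first 3 genes were found almost only in females and Cyp3a11 in both sexes. Capitals mark the 6 bases aligned with ATCAAT, a core recognised by Onecut and Cux proteins.
Cyp3a16: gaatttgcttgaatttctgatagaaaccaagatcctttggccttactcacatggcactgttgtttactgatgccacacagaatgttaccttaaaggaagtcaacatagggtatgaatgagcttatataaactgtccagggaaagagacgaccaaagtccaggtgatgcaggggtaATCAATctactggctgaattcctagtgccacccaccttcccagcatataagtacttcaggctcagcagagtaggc
Cyp3a41a: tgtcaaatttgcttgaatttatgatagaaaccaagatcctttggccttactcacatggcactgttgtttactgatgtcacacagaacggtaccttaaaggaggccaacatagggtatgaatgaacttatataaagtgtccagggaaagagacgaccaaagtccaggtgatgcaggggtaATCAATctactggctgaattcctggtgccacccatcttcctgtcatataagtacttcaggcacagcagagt
Cyp3a44: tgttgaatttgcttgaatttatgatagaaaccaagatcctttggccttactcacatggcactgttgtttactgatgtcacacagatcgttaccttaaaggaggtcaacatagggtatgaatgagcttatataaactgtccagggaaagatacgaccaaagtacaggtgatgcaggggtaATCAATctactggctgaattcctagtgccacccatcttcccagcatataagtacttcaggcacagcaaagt
Cyp3a11: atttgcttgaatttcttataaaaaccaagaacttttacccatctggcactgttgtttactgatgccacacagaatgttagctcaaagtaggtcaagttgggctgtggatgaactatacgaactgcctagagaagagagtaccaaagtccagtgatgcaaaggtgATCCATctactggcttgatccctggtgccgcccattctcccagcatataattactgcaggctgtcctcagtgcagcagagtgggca
Counting both strands (ATCAAT or ATTGAT), the core was present in the windows of Cyp3a16, Cyp3a41a, Cyp3a41b and Cyp3a44, at positions −75 to −70 (Cyp3a16) or −71 to −66 relative to the start, and in 6.72% of 32851 RefSeq windows of the same length. In Cyp3a11 the aligned bases were ATCCAT, which is A4C against Cyp3a16 with positions counted from 1 at the first capital. These 2 windows were identical at only 199 of 261 aligned positions, so this base is 1 of many differences. Whether it matters for binding or for the sex difference was not tested. Because these promoters are so alike, the matches are not independent of each other. The letters TGTTTAC (Foxa) were present in these 5 windows and in 3.17% of all windows. CAAAGTCCA (Hnf4) was present in those of Cyp3a11, Cyp3a16, Cyp3a41a and Cyp3a41b and in 0.38% of all, and TTCNNNGAA (Stat5) in 0 of the 8 members and 7.02% of all. GENCODE places the start of Cyp3a11 110 bases upstream of that of RefSeq, so that part of its window is exon there. A match is a description of letters, not a site of binding, and binding was not measured.

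The deletion was evident in the libraries. The summed level of 22 Mup genes was 17030 to 37390 CPM (counts of a gene relative to all counts of its library, scaled with TMM factors) in mWT and 3395 to 5259 CPM in fWT, and at most 0.4574 CPM in any KO mouse. Libraries held 15361901 to 26261394 counts. No replicate library repeated another one. The 5 hepatocyte markers summed to 82960 to 138900 CPM in the 24 mice. In bulk liver, fewer cells that express a gene and less RNA per cell cannot be told apart.

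Together the 8 genes took 0.5188% ± 0.1135 of reads in mWT, 0.6538% ± 0.1437 in mKO, 0.4836% ± 0.08116 in fWT and 0.5288% ± 0.09466 in fKO (SD, n = 6 each). Cyp3a11 made up most of that amount in each group, with 78.1% ± 4.877 of the family's CPM in mWT, 79.48% ± 2.764 in mKO, 68.31% ± 8.187 in fWT and 73.55% ± 2.256 in fKO. Cyp3a25 was next, at 14.96% to 16.97% of the family's CPM as a group mean. In fWT, the female-limited genes Cyp3a41a, Cyp3a44 and Cyp3a16 contributed 3.424% ± 1.937, 3.02% ± 1.86 and 2.554% ± 1.838. With Cyp3a41b included, the female-limited genes summed to at most 0.366 CPM in any mWT and 0.1783 CPM in any mKO mouse.

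Per length of annotated exons, the mean level in mWT fell from Cyp3a11 (804.2 CPM per kb) over Cyp3a25 (414 CPM per kb) and Cyp3a13 (69.18 CPM per kb) to Cyp3a59 (22.97 CPM per kb), with no overlap between the mice of neighbouring genes in that order. In fWT the order began with Cyp3a11 (640.4 ± 157.7 CPM per kb) and Cyp3a25 (350.2 ± 76.59 CPM per kb). Then came Cyp3a13 (85.98 ± 10.21), Cyp3a41a (74.4 ± 35.96), Cyp3a16 (68.8 ± 54.79) and Cyp3a44 (67.85 ± 32.81 CPM per kb), among which neighbours differed by less than the SD of the lower one. Cyp3a59 (35.53 ± 9.086) lay below Cyp3a44 by more than the SD of Cyp3a59 but less than that of Cyp3a44. Cyp3a41b (4.413 ± 2.754 CPM per kb) was lowest. This order depends on the length used. With only the windows found in no other gene, Cyp3a41a had 851.4 CPM per kb in fWT in place of 74.4, and Cyp3a41b 39.43 in place of 4.413, and with the longest coding transcript Cyp3a11 had 1391 in place of 640.4. Cyp3a41a therefore has no firm place in it.

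**Figure D1:**
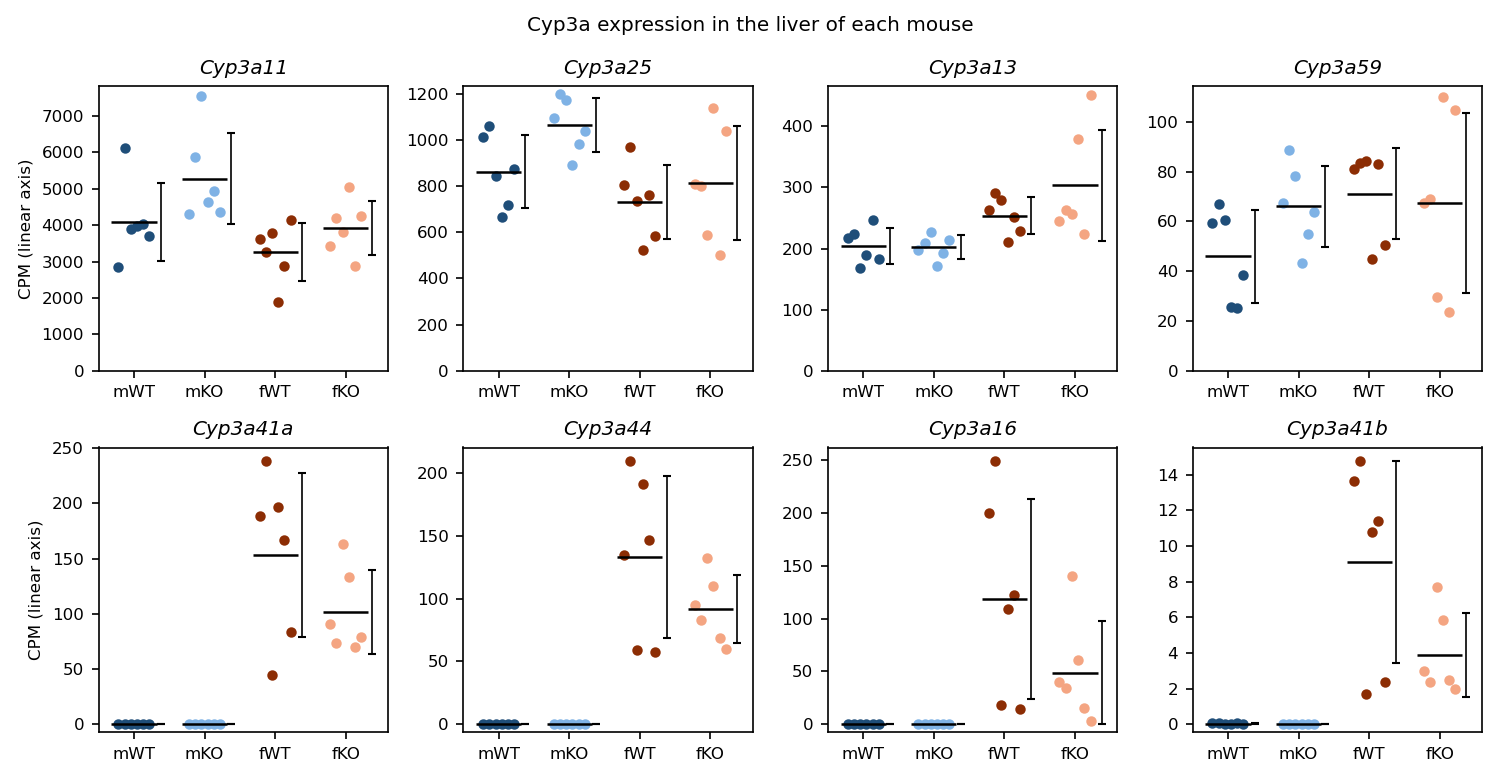
CPM (linear axis, a separate scale for each gene) of the 8 Cyp3a genes in the liver of each mouse, for mWT, mKO, fWT and fKO (6 mice each). Points are mice, horizontal lines are group means and bars to their right are SD. Cyp3a41a, Cyp3a44, Cyp3a16 and Cyp3a41b lay at or near 0 in all 12 males, and in fWT mice 3 and 6 were the 2 lowest for each of them.

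The clearest difference within the family was between the sexes. Cyp3a16, Cyp3a41a, Cyp3a41b and Cyp3a44 were read in all 12 females and almost not at all in males. Over the 12 males, 3 reads were counted for Cyp3a16, 2 for Cyp3a41a, 3 for Cyp3a41b and 12 for Cyp3a44, with at most 4 in any library. Over the 12 females the counts were 20755, 31865, 1618 and 28255. The lowest female was 3.273 CPM for Cyp3a16, 44.12 for Cyp3a41a, 1.669 for Cyp3a41b and 57.12 for Cyp3a44, and no male exceeded 0.244 CPM for any of the 4.

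Pooled over the WT mice, Cyp3a16 was 12130 times higher in females than in males (95% counting interval 2178 to 479300, from 14876 reads against 1). Cyp3a44 was 2299 times higher (1056 to 6264, 16907 reads against 6) and Cyp3a41b 311.9 times higher (106.5 to 1515, 1147 reads against 3). Cyp3a41a, with 19457 reads against 0, had no ratio, and its 95% counting interval began at 4302. With 3 reads over the male group taken as the floor, it was 5291-fold higher. These intervals and floors cover counting error only. In the KO mice the ratios were 2713 for Cyp3a16 (750.7 to 22410), 5726 for Cyp3a41a (1585 to 47290) and 1746 for Cyp3a44 (801.8 to 4758). For Cyp3a41b, with 471 reads in fKO against 0 in mKO, the 95% counting interval began at 117.4. The floor of 3 reads gave 144.9-fold.

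Because these 4 genes entered the test of sex through the female libraries alone, their calls and their lack of overlap follow from the filter, and nothing is read from them. With edgeR's quasi-likelihood test and Benjamini-Hochberg adjustment over all genes, 4 of 8 members were higher in fWT than in mWT at an adjusted p under 0.05 and 0 were lower, beside 8.81% of all genes tested that were higher. Without overlap between the 6 mice of each sex were 4 of 8 members, beside 7.70% of all genes. Between fKO and mKO, 5 of 8 were higher and 0 lower, beside 7.13% of all genes higher, and 4 had no overlap, beside 7.26%. Of the other 4 members, which passed the filter in both sexes, 0 were called in WT and 1 in KO mice.

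The gene called in KO mice was Cyp3a13, a form also known from the intestine. It had 167.6, 203 and 246.1 CPM (lowest, median, highest) in mWT, 171.2, 203.7 and 228 in mKO, 211.5, 257.5 and 290.5 in fWT, and 224, 260.1 and 451.8 in fKO. All fKO mice but mouse 5 lay above every mKO mouse, and fKO mice 4 and 6 were the highest of the 24, at 380 and 451.8 CPM. Cyp3a13 was 1.501 times higher in fKO than in mKO (log2 difference 0.59 ± 0.14, SE, adjusted p = 0.004353, edgeR), and it passed under each of 33 alternatives, with adjusted p from 0.0006549 to 0.03161. In WT mice the sex difference of 0.31 ± 0.14 on the log2 scale did not pass (adjusted p = 0.1204, edgeR). Whether the 2 sex differences of Cyp3a13 differ is the interaction test, which also did not pass (adjusted p = 0.8951).

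The remaining genes leaned in different directions between the sexes without passing the test. Cyp3a11, the major form, had 2858, 3939 and 6104 CPM (lowest, median, highest) in mWT and 1882, 3434 and 4148 in fWT, with a log2 difference of −0.33 ± 0.18 (SE, adjusted p = 0.2316, edgeR). In KO mice the difference was −0.42 ± 0.18 (adjusted p = 0.1291). Cyp3a25 differed by −0.24 ± 0.17 between fWT and mWT (adjusted p = 0.3625) and by −0.39 ± 0.17 between fKO and mKO (adjusted p = 0.134, edgeR). The latter passed only without fKO mouse 4, at −0.51 and an adjusted p of 0.04969. Cyp3a59, the nearest relative of Cyp3a25, differed by 0.63 ± 0.34 in WT mice (adjusted p = 0.2214) and by 0.03 ± 0.34 in KO mice (adjusted p = 0.973, edgeR).

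The ratio of these 2 neighbours differed in level between the WT groups. Cyp3a59 amounted to 3.502%, 5.124% and 7.192% (lowest, median, highest) of the CPM of Cyp3a25 in mWT and to 8.605%, 9.342% and 11.46% in fWT, with no overlap. In KO mice the values overlapped, at 4.853%, 6.152% and 7.408% in mKO and 4.689%, 8.495% and 10.09% in fKO. This ratio was formed after the values were seen and was not tested.

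Other transcripts moved with sex as well. Of the 12330 genes tested, 8.81% were higher in fWT and 7.13% in fKO than in males of the same genotype. In either direction, 2135 genes differed in WT and 1774 in KO mice. The 5 blood markers (haemoglobin genes and Alas2) summed to 40.55 to 67.8 CPM in females and 148.9 to 259.7 CPM in males. In fWT against mWT 1 of 5 was lower, Alas2 (log2 −3.44, adjusted p = 1.446e-13, edgeR). The haemoglobin genes differed there by −0.497 to −0.306, with adjusted p from 0.2204 to 0.3217 (edgeR). In fKO against mKO 5 of 5 were lower, Alas2 by −3.15 and the haemoglobin genes by −1.145 to −0.914 on the log2 scale. The 5 Kupffer cell markers summed to 65.26 to 132.5 CPM in mWT and 117.4 to 218.2 CPM in fWT, with 3 of 5 higher in fWT. They summed to 63.75 to 176.7 CPM in mKO and 99.87 to 171.9 CPM in fKO, and 0 of 5 passed there. Of the 5 sinusoidal endothelial cell markers (158.5 to 201.8 CPM in males, 171.3 to 244.4 in females), 2 were higher in fWT and 1 in fKO than in males of the same genotype. Of the 5 stellate cell markers (154.1 to 283.9 CPM in males, 200.7 to 305.3 in females) these were 1 and 2, and of 3 tested cholangiocyte markers (all 5 summed to 30.38 to 47.04 CPM in males, 36.01 to 56.31 in females) 1 and 0. No gene of these lists was at 0 in a group. Their part in the sex differences of the Cyp3a genes was not tested.

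Deletion of the Mup cluster changed no Cyp3a gene past the test in either sex. In males, 0 of the 4 genes with measurable levels passed an adjusted p under 0.05, beside 0.211% of all genes, and 0 passed an unadjusted p under 0.01, the cut-off of the study, beside 3.52%. In females, 0 of 8 passed the adjusted threshold, beside 0.0892% of all genes, and 0 the unadjusted cut-off, beside 0.876%. At an unadjusted p under 0.05, 0 of 4 passed in males, beside 10.6% of all genes, and 1 of 8 in females, beside 4.87%. Without overlap between the 6 KO and 6 WT mice were 0 of 4 in males, beside 1.09% of all genes, and 0 of 8 in females, beside 0.349%. DESeq2 likewise called 0 members in either sex. At the unadjusted cut-off, leaving out 1 mouse brought in Cyp3a11 in males and Cyp3a16, Cyp3a41a or Cyp3a41b in females. A p that misses the threshold does not show that the genes stayed the same, and the intervals allow changes of the sizes given next.

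In males, the means of 3 of the 4 genes were above WT in mKO. Cyp3a11 had 2858, 3939 and 6104 CPM (lowest, median, highest) in mWT and 4300, 4785 and 7536 in mKO. All mWT mice but mouse 2 lay below every mKO mouse, and mWT mouse 2 lay above all mKO mice but mouse 3. The fold was 1.287 (95% interval 0.99 to 1.673, adjusted p = 0.4884, edgeR). Cyp3a25 had 665.7, 857.5 and 1061 CPM in mWT and 889.3, 1066 and 1198 in mKO, a fold of 1.232 (0.9651 to 1.573, adjusted p = 0.5636). Each of the 6 mKO mice was above the mWT median for both genes. Cyp3a59, at 25.13, 48.84 and 67 CPM in mWT and 43.15, 65.58 and 88.79 in mKO, had a fold of 1.439 (0.8787 to 2.356, adjusted p = 0.639). Cyp3a13 had a fold of 0.9887 (0.8119 to 1.204, adjusted p = 0.9857, edgeR).

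In females, the 4 female-limited genes had the lower means in fKO, and all 4 are close relatives in sequence and neighbours on the chromosome. Cyp3a16 had 14.32, 18.41, 108.8, 122.4, 200.4 and 249.8 CPM in the 6 fWT mice and 3.273, 15.16, 34.01, 39.5, 60.79 and 140.2 CPM in the 6 fKO mice. The groups overlapped widely, since fWT mice 3 and 6 were each below at least 4 of the fKO mice. The fold was 0.4097 (95% interval 0.1632 to 1.028, adjusted p = 0.9288, edgeR), a log2 fold change of −1.29. Cyp3a16 was at −1.96 without fKO mouse 3 and at −0.93 without fWT mouse 2, with adjusted p from 0.7802 to 0.9969 over its 34 alternatives (edgeR).

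Cyp3a41b, with few reads, had 1.669, 11.11 and 14.76 CPM (lowest, median, highest) in fWT and 1.987, 2.722 and 7.713 in fKO, a fold of 0.4247 (0.2119 to 0.8515, adjusted p = 0.9288, edgeR). It was the only member with an unadjusted p under 0.05. Cyp3a41a had 44.12, 178.1 and 238.8 CPM in fWT and 70.11, 85.03 and 162.9 in fKO, a fold of 0.6632 (0.4088 to 1.076). Cyp3a44 had 57.12, 140.8 and 209.9 CPM in fWT and 59.72, 88.91 and 132.4 in fKO, a fold of 0.6873 (0.4612 to 1.024). For both, the adjusted p was 0.9288 with edgeR, and no fKO mouse was above the fWT median. For Cyp3a41a, Cyp3a41b and Cyp3a44 fWT mouse 3 or 6 gave the lowest fWT value and fWT mouse 2 the highest. The 4 genes varied together from mouse to mouse (given next), so that their common direction is not 4 separate observations.

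The other 4 genes had the following levels. Cyp3a11 had 1882, 3434 and 4148 CPM (lowest, median, highest) in fWT and 2887, 4003 and 5035 in fKO, a fold of 1.205 (0.9271 to 1.567). For Cyp3a13 the fold was 1.194 (0.981 to 1.454), for Cyp3a25 1.113 (0.8714 to 1.42) and for Cyp3a59 0.9463 (0.5807 to 1.542). The adjusted p-values were 0.9288, 0.9288, 0.9469 and 0.9897 (edgeR). The spread of Cyp3a59 was wide in fKO, from 23.5 CPM in mouse 5 to 110 CPM in mouse 4.

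**Figure D2:**
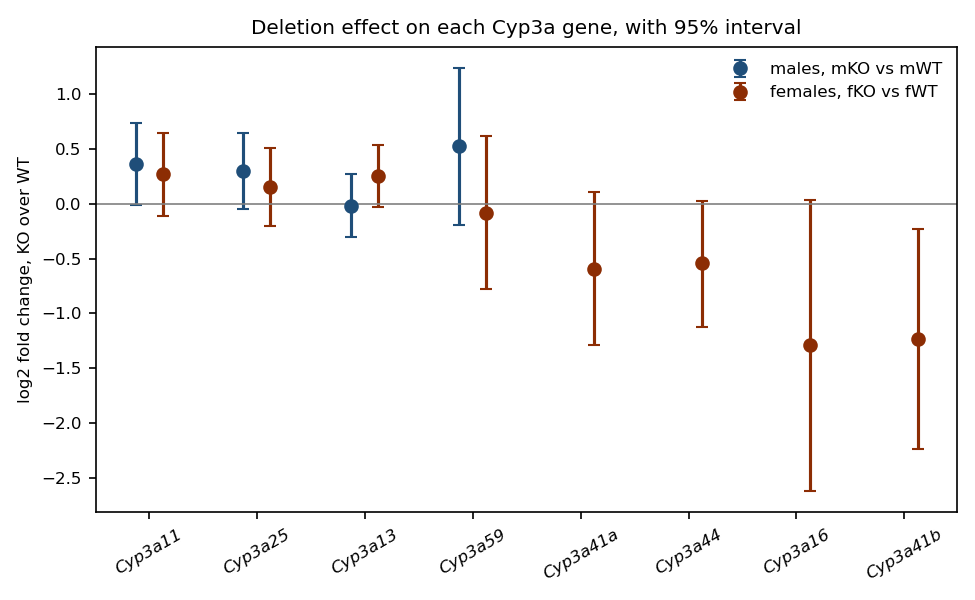
Log2 fold change of KO over WT for each Cyp3a gene, in males (mKO vs mWT) and females (fKO vs fWT), as points with 95% intervals from edgeR's quasi-likelihood fit to all 24 mice. Males are shown for the 4 genes with measurable levels. Only the interval of Cyp3a41b in females, −2.24 to −0.23, lay wholly on one side of 0.

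The effects of the deletion were not shown to differ between males and females. Of the 4 genes with levels in both sexes, 0 passed the interaction test at an adjusted p under 0.05, beside 0.00811% of all genes, 0 at an unadjusted p under 0.01, beside 1.16%, and 0 at an unadjusted p under 0.05, beside 5.96%. DESeq2 called 0 as well. The difference of the log2 fold changes, males minus females, was 0.10 ± 0.26 for Cyp3a11, −0.27 ± 0.20 for Cyp3a13, 0.15 ± 0.24 for Cyp3a25 and 0.60 ± 0.48 for Cyp3a59 (SE). The adjusted p-values were 0.9695, 0.8951, 0.9476 and 0.8975 (edgeR). For the female-limited genes the test says nothing, since males had almost no reads.

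The female-limited genes differed widely among the 12 females. Between the lowest and the highest of the 12 females, Cyp3a16 differed 76.33-fold, from 3.273 CPM in fKO mouse 6 to 249.8 in fWT mouse 2. The span was 8.841-fold for Cyp3a41b, 5.414-fold for Cyp3a41a and 3.675-fold for Cyp3a44, against 2.676-fold for Cyp3a11, 2.272-fold for Cyp3a25 and 2.136-fold for Cyp3a13. Cyp3a59 spanned 4.681-fold. Within fWT the span was 17.44-fold for Cyp3a16, 8.841-fold for Cyp3a41b, 5.414-fold for Cyp3a41a and 3.675-fold for Cyp3a44, against 1.373-fold to 2.205-fold for the other 4 genes. Within fKO it was 42.83-fold for Cyp3a16 and 3.882-fold for Cyp3a41b, but 2.324-fold for Cyp3a41a and 2.216-fold for Cyp3a44, close to 2.272-fold for Cyp3a25 and below Cyp3a59. The ratio of Cyp3a16 to Cyp3a44 ran from 0.05479 to 1.483, whereas that of Cyp3a41a to Cyp3a44 stayed between 0.7484 and 1.464.

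These 4 genes rose and fell together. After the group mean of log2 CPM was subtracted, all 6 pairs among them correlated over the 12 females, with Pearson r from 0.806 to 0.969. For Cyp3a16 and Cyp3a44, which share at most 5.37% of their windows with any gene, r was 0.894 (permutation p = 0.00018, adjusted over 28 pairs 0.001176) and Spearman rho 0.874 (permutation p = 0.00069, adjusted 0.00406). Without the 2 mice farthest from the median of Cyp3a16, r was 0.891. For Cyp3a41a and Cyp3a44, r was 0.92 (permutation p = 0.00021, adjusted 0.001176), rho 0.944 (permutation p = 0.00023, adjusted 0.00322) and r without 2 mice 0.908. For Cyp3a41a and Cyp3a41b, r was 0.969 (permutation p = 0.00014, adjusted 0.001176), rho 0.923 (permutation p = 0.0005, adjusted 0.00406) and r without 2 mice 0.964, but 1734 of their windows are the same, and the part of shared reads in this value was not tested.

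Outside that set, Cyp3a25 went together with Cyp3a59 and with Cyp3a13 over the 24 mice. Cyp3a25 and Cyp3a59 correlated over all 24 mice, with r 0.935 (permutation p = 1e-05, the smallest that 100000 shuffles can give, adjusted over 28 pairs 0.00028), rho 0.874 (p = 1e-05, adjusted 0.00028, permutation) and r without the 2 farthest mice 0.904. Within the 12 males r was 0.922 and within the 12 females 0.95. These genes share 148 windows, 7.39% of those of Cyp3a59, and the part of shared reads in this value was not tested. Cyp3a13, which shares no window with another gene and lies outside the main cluster, correlated with Cyp3a25 over 24 mice (r 0.72, permutation p = 0.00208, adjusted 0.00832, rho 0.698 with permutation p = 0.00137, adjusted 0.007672, r without 2 mice 0.634). Within females r was 0.84 (permutation p = 0.00267, adjusted 0.009345) and within males 0.346 (permutation p = 0.3384, adjusted 0.5322). Cyp3a13 and Cyp3a59 did not pass over 24 mice (r 0.601, permutation p = 0.02438, adjusted 0.06206, rho 0.544 with permutation p = 0.02226, adjusted 0.06233). In males r was 0.118 (permutation p = 0.7512, adjusted 0.7512). This pair passed only in females by Spearman correlation (rho 0.895, permutation p = 0.00087, adjusted 0.00406) and not there by Pearson (r 0.809, permutation p = 0.01984, adjusted 0.06172).

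Cyp3a11 did not correlate with the female-limited genes past the test. Over 12 females its r with them lay between −0.435 (Cyp3a44, permutation p = 0.2356, adjusted 0.5074) and −0.209 (Cyp3a16, permutation p = 0.5376, adjusted 0.8855). Its r with Cyp3a25 was 0.583 in females (permutation p = 0.04223, adjusted 0.09854) and fell to 0.138 without the 2 farthest mice. With Cyp3a13 it passed by Spearman correlation, over 24 mice (rho 0.523, permutation p = 0.01081, adjusted 0.03363) and over 12 females (rho 0.685, permutation p = 0.01082, adjusted 0.0303). By Pearson this pair did not pass (r 0.472, permutation p = 0.01613, adjusted 0.05018, and in females r 0.565, permutation p = 0.03066, adjusted 0.0784). By Pearson correlation, 8 of the 28 pairs were positive past an adjusted p of 0.05 over the 24 mice and 0 negative, and 8 and 0 over the 12 females. Of 6 pairs in males, 1 passed.

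**Figure D3:**
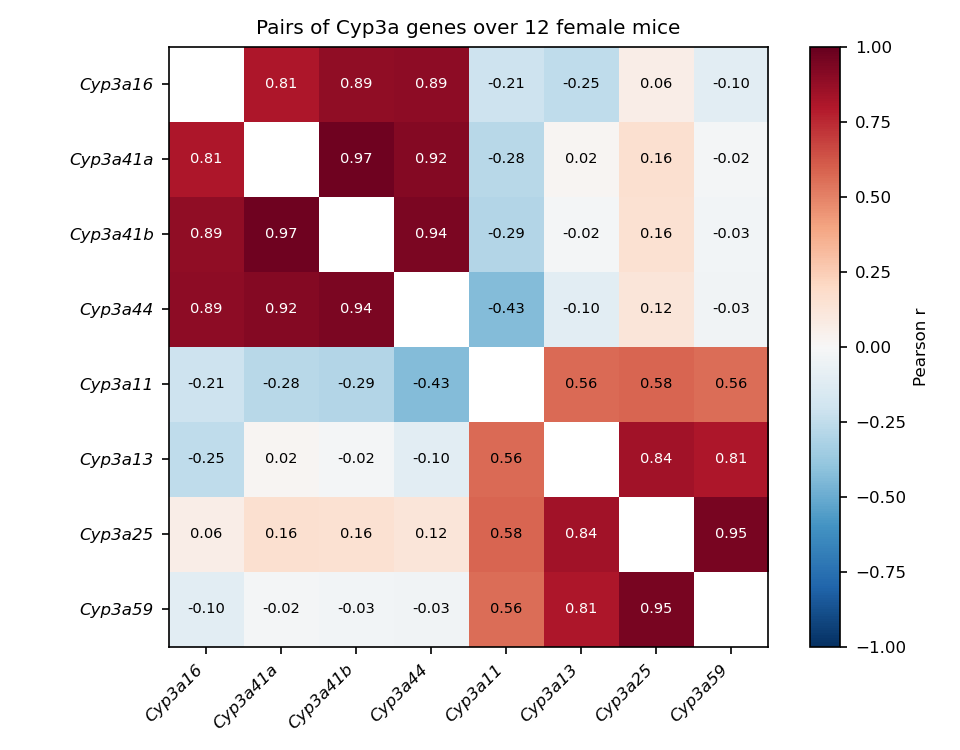
Pearson r (colour scale from −1 to 1, value printed in each cell) of the deviations of log2 CPM from the group mean for each pair of Cyp3a genes, over 12 females (6 fWT and 6 fKO). Cyp3a16, Cyp3a41a, Cyp3a41b and Cyp3a44 form a block from 0.81 to 0.97. Among Cyp3a13, Cyp3a25 and Cyp3a59 r was 0.81 to 0.95 in these females, and Cyp3a13 with Cyp3a59 did not pass by Pearson correlation.

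**Figure D4:**
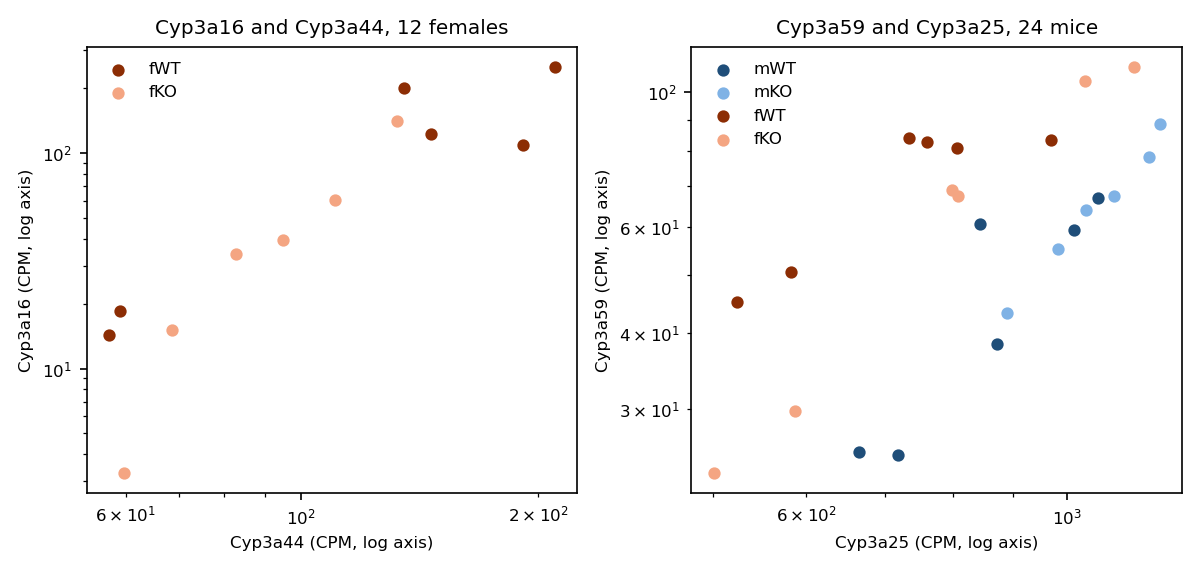
CPM of Cyp3a16 against Cyp3a44 in the 12 females (left) and of Cyp3a59 against Cyp3a25 in the 24 mice (right), both axes logarithmic, with a point for each mouse coloured by group. On the right, the fWT mice have more Cyp3a59 for their Cyp3a25 than the mWT mice.

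By the correlation over 24 mice after removal of group means, the gene outside the family most like each member, of 12322 compared, was Mospd1 for Cyp3a11 (r 0.848), Prps1 for Cyp3a13 (0.778), Gm12353 for Cyp3a25 (0.857) and N4bp2 for Cyp3a59 (0.807). It was Gm21973 for Cyp3a16 (0.753) and Cyp3a41b (0.792), Sult2a1 for Cyp3a41a (0.772) and Eci3 for Cyp3a44 (0.688). Sult2a1 encodes a sulfotransferase of bile acids and steroids. For the female-limited genes the male values in these correlations were at or near 0. As the highest of many values they are given as a description, without a test, and all points share their libraries.

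The nuclear receptors and partners of the family were read beside it. Of 17 tested regulators, 0 passed with edgeR in mKO against mWT, in fKO against fWT or in the interaction. Of all genes tested, 0.211%, 0.0892% and 0.00811% passed there. Between the sexes, 2135 of the 12330 genes tested passed in WT and 1774 in KO mice. Nr1i2, encoding PXR, had 83.83 ± 13.76 CPM in mWT, 85.22 ± 6.563 in mKO, 84.27 ± 10.15 in fWT and 85.91 ± 14.55 in fKO (SD, n = 6), and differed between the sexes by at most 0.01 on the log2 scale. Nr1i3, encoding CAR, was higher in females, at 442.6 ± 106.4 CPM in fWT against 247.2 ± 95.98 in mWT (log2 0.84 ± 0.23, SE, adjusted p = 0.01441, edgeR) and by 0.93 ± 0.23 in KO mice (adjusted p = 0.008237). Foxa3 was lower in females, by −0.61 ± 0.17 in WT (adjusted p = 0.01239) and −0.53 ± 0.17 in KO mice (adjusted p = 0.0355, edgeR). The other 15 did not pass in either genotype, among them Hnf4a (−0.07 ± 0.11 in WT, adjusted p = 0.7291).

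Of 14 partner and haem synthesis genes, 0 passed in the KO comparisons, beside 0.211% of all genes in males and 0.0892% in females. In fWT 2 were lower than in mWT, and in fKO 1 was higher and 3 were lower than in mKO. Of the 12330 genes tested, 2135 and 1774 differed with sex in WT and KO mice, in either direction. Por, the electron donor, had 225.2, 339.9 and 593 CPM (lowest, median, highest) in mWT and 144, 216.7 and 278.5 in mKO, a log2 difference of −0.74 ± 0.27 (SE, adjusted p = 0.3017, edgeR). In females the difference was −0.16 ± 0.27 (adjusted p = 0.9665). Por was higher in fKO than in mKO by 0.85 ± 0.27 (adjusted p = 0.03806), while between fWT and mWT it was 0.27 ± 0.27 (adjusted p = 0.5439, edgeR). Cyb5r3, the reductase of cytochrome b5, was lower in females in both genotypes (−0.44 ± 0.09, adjusted p = 0.001331, and −0.49 ± 0.09, adjusted p = 0.000434, edgeR), Fech in WT mice (−0.21 ± 0.06, adjusted p = 0.02152) and Cyb5b in KO mice (−0.35 ± 0.10, adjusted p = 0.01983). Alas1, the rate-limiting enzyme of haem synthesis, did not pass in any comparison.

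Of 20 other PXR and CAR targets, 8 were higher and 5 lower in fWT than in mWT, and 7 and 6 in fKO than in mKO. Of the 12330 genes tested, 8.81% were higher in fWT and 7.13% in fKO, and 2135 and 1774 differed in either direction. Cyp2b10, the classical CAR target, had 38.83 ± 11.54 CPM in fWT and 2.94 ± 1.964 in mWT (log2 3.73 ± 0.41, adjusted p = 1.089e-06, edgeR), and Cyp2c37 was higher by 1.93 ± 0.18 (adjusted p = 3.508e-08). Gsta1 was lower by −2.33 ± 0.45 (adjusted p = 0.0005834) and Ces2a by −0.53 ± 0.10 (adjusted p = 0.000251). In fKO against mKO the leading genes were Cyp2c37 (1.63 ± 0.18) and Abcb1a (2.54 ± 0.31) among the higher, and Aldh1a1 (−0.92 ± 0.14) and Gsta1 (−2.72 ± 0.44) among the lower. In mKO against mWT 0 of the 20 passed, beside 0.211% of all genes. The median log2 fold change of the 20 was 0.27 there, beside −0.0021 for all genes tested.

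The 17 female-biased and 17 male-biased liver genes were listed with earlier results of these data known. Their counts are a description and not an independent check of the sexes. All 17 of the former were higher and 16 of the latter lower in females in both genotypes. Of the 12330 genes tested, 8.81% were higher in females in WT and 7.13% in KO mice, and 2135 and 1774 differed in either direction. The exception among the male-biased genes was Bcl6 (−1.80 ± 0.70 in WT, adjusted p = 0.08489, edgeR). Cux2, the female-specific repressor of male-biased genes, had 9.396 to 42.75 CPM in fWT and 0.06248 to 0.454 in mWT. Of 9 growth hormone signalling genes, Igfals and Socs2 were higher and Ghr lower in fWT than in mWT, and Igfals and Igf1 higher in fKO than in mKO. Stat5b differed by 0.04 ± 0.17 (adjusted p = 0.9041, edgeR). Of 10 pericentral genes, expressed in the lobule zone where most P450 genes are found, 5 were higher in fWT and 3 in fKO than in males of the same genotype, and of 10 periportal genes 1 and 2 were lower. Of 14 clock output genes, 0 and 1 differed with sex. In mKO against mWT 0 of the 14 passed, with a median log2 fold change of −0.253 beside −0.0021 for all genes tested. Of these 14, 4 had an unadjusted p under 0.05 and 2 under 0.01 there (edgeR), beside 10.6% and 3.52% of all genes. In fKO against fWT the median was −0.082, with 2 and 0 under these cut-offs, beside 4.87% and 0.876%. The part of the clock in the Cyp3a levels was not tested. Over the 128 genes of all lists, 0 passed with edgeR in either KO comparison or in the interaction. At an unadjusted p under 0.05 there were 21 for mKO, 10 for fKO and 11 for the difference of both. Of all genes tested, 10.6%, 4.87% and 5.96% lay under it. DESeq2 called 4, 1 and 0 of the listed genes, and 139, 18 and 11 of all genes tested.

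The neighbours on chromosome 5 were counted as well, leaving out all genes named Cyp3a. Within 0.5 Mb of the main cluster, 14 of 31 genes were tested, and 0 were higher in females in either genotype. Of all genes tested, 8.81% were higher in fWT and 7.13% in fKO than in males of the same genotype. With so few neighbours, 0 is near these shares, and nothing is read from it. Smurf1 was lower in females in WT and KO mice, Bud31 and Atp5j2 in KO mice, at log2 differences from −0.47 to −0.24. Around Cyp3a13, 29 of 45 genes were tested, and Zcwpw1 was higher in fWT (0.83) and Zfp113 in fKO (0.50) than in males of the same genotype. In the KO comparisons 0 of the 43 neighbours passed with edgeR, beside 0.211% of all genes in males and 0.0892% in females. At an unadjusted p under 0.05 there were 4 in males and 1 in females, beside 10.6% and 4.87% of all genes.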

How the data were processed

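RNA was extracted from snap-frozen liver of 24 mice at 12 weeks of age, and stranded mRNA libraries were sequenced in 1 multiplex as 100 bp single-end reads. Per the submitters' processing notes, fastp 0.20 was used for trimming and STAR 2.7a for alignment to GRCm38.p6. The authors obtained counts with featureCounts of Rsubread. The deposited values are raw counts per Ensembl gene. The annotation release, the strand setting and the treatment of reads with several matches are not given in the sources used here. Of 25746 genes, 25712 were matched to GENCODE M21 and 34 were not.

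Groups and mouse numbers came from the sample labels. The minimum of 0.66 CPM in 6 or more libraries and the use of edgeR followed the study. The 12330 genes kept here are fewer than the expressed genes that the study reported. Shares given at its unadjusted cut-off are therefore of a different set of genes. The other settings were chosen here: edgeR 4.0.16 in R 4.3.3, TMM scaling, robust dispersions, 1 mean per group and a quasi-likelihood test, with adjusted p-values (Benjamini-Hochberg) over all 12330 genes. The comparisons were mKO with mWT, fKO with fWT, the difference of both, and females with males in each genotype. Pairs of genes were compared by permutation of mice within groups, 100000 times, two-sided. The test was checked on simulated data.

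The members and gene lists were chosen with earlier results of these data known. Named genes are the 8 members, their nearest gene by correlation, Nr1i2, Nr1i3, Hnf4a, Por, Alas1, Cyp2b10, Stat5b, Cux2 and Bcl6, at most 2 called genes per list and direction with the lowest p, and called neighbours within 0.5 Mb. Alternatives were DESeq2 1.42.0, its size factors, other filters and dispersions, removal of 22 Mup genes, each sex fitted alone, Cyp3a41a and Cyp3a41b summed, the mouse number as a block, and each mouse left out. Correlations within 1 sex, Spearman counts and the coding transcript length were chosen after seeing the data. Promoter windows came from a RefSeq table, in which all 8 members were found. Methylation was not analysed here.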

Additional observations from a re-analysis of the deposited data

Results flagged for a closer look

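Cyp3a11 in mWT mouse 2, at 6104 CPM, stood apart from the other 5 mWT mice, of which the next was at 4024 CPM. The gap was 0.6409 of the range of the group, above Dixon's 95% critical value for 6 samples. Of 24 groups of values examined this was the only one, and chance alone flags about 1 in 20 groups. Without this mouse the log2 fold change of Cyp3a11 in mKO over mWT was 0.51 in place of 0.36, with an adjusted p of 0.2223 (edgeR). The unadjusted p was then 0.007508, under the cut-off of 0.01 that the study used.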

How the results depend on the processing

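Under every alternative, 0 Cyp3a genes were called in the KO comparisons and the interaction and 4 in fWT against mWT (3 with Cyp3a41a and Cyp3a41b summed). With 1 mouse left out in turn the counts were 0 to 0 in both KO comparisons and the interaction, 4 to 4 in fWT against mWT and 5 to 6 in fKO against mKO. The calls of the female-limited genes between the sexes follow from the filter, so nothing is read from their persistence. The lowest unadjusted p of Cyp3a41b in fKO against fWT was 0.002232 and the highest 0.146, with adjusted p from 0.7244 to 0.9969. At the study's unadjusted cut-off of 0.01, Cyp3a41b passed without fWT mouse 3 or 6 or fKO mouse 3 and with the deviances of edgeR 4, Cyp3a41a without fWT mouse 3 (lowest unadjusted p 0.00693), Cyp3a16 without fKO mouse 3 (0.005551), and Cyp3a11 in males without mWT mouse 2 (0.007508). Summed with Cyp3a41b, Cyp3a41a had a log2 fold change of −0.62 there (adjusted p = 0.9288, edgeR).

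Directions changed only for values near 0. Leaving out 1 mouse moved Cyp3a13 in mKO over mWT between −0.068 and 0.044 (above 0 without mWT mouse 1, 2 or 5, at 0.002, 0.011 and 0.044, or mKO mouse 4, at 0.027). Cyp3a59 in fKO over fWT moved between −0.271 and 0.101 (0.073 and 0.101 without fKO mouse 3 or 5). In fKO over mKO, Cyp3a59 lay between −0.166 and 0.207, and was −0.072, −0.022, −0.166 and −0.139 without mKO mouse 4 or 5 or fKO mouse 4 or 6. The interaction of Cyp3a11 lay between −0.035, without mKO mouse 3, and 0.244. The cause was not tested.

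The mouse numbers did not pair the mice. Deviations of WT and KO mice with the same number correlated between −0.127 and 0.169 in males and −0.335 and 0.16 in females. With the number as a block, 0 members were called in the KO comparisons and the interaction, 4 in fWT against mWT and 5 in fKO against mKO, the same counts as without it, and Cyp3a59 in fKO over mKO turned from 0.025 to −0.045. Here too, the calls of the female-limited genes between the sexes follow from the filter.

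Among the listed genes, DESeq2 called 4 in mKO against mWT (Cyp2b9, Cyp2c29, Elovl3 and Trim24) and 1 in fKO against fWT (Serpina1e), the block 1 in females (Cyp2d9), and leaving out mWT mouse 1 or 3 called 1 in males (Trim24 or Elovl3), each named after its value was seen. Over all genes, DESeq2 called 139 in mKO against mWT and 18 in fKO against fWT, where edgeR called 26 and 11. For the listed genes, the range without 1 mouse was 0 to 1 in males, 0 to 0 in females and the interaction, 54 to 60 in fWT against mWT and 53 to 61 in fKO against mKO. Of pairs of members, 8 passed over the 24 mice (9 by Spearman correlation) and 8 over the 12 females (10 by Spearman correlation), and 1 of 6 over the 12 males. With 6 mice per group, small changes in genes that vary widely between mice are not resolved, and Cyp3a41b rests on 34 to 300 reads per female library.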
